A study of Mus musculus with 24 samples.

Results

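Interferon-stimulated genes are the genes that cells switch on when interferons reach them, and 38 of them were followed here through the livers of 24 male mice. They were chosen by symbol: each gene was read from the Affymetrix Mouse Gene ST probe set that the array annotation assigns to that symbol alone, and where there were several, from the one with the highest mean over the 24 arrays. Of the 38 genes listed, 31 were measured in this way, out of 19938 genes with such a probe set and 35556 probe sets in all. Irgm2, Igtp, Ifi47, Gbp2, Gbp6 and Isg15 had only probe sets that the annotation shares with other symbols, and Ifi44 was on no named probe set used here, so these 7 are not analysed.

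The mice were 24 weeks old, on the C57Bl6 background, fed standard chow, and 8 of each genotype gave 1 liver array each. In alb-SREBP-1a∆P mice, the albumin promoter drives the HA-tagged N-terminal, transcriptionally active domain of human SREBP-1a with its MAP kinase phosphorylation sites mutated. In alb-SREBP-1a mice, the same promoter drives the same domain with these sites intact, and C57Bl6 mice were wild type. The albumin promoter is active in hepatocytes, while the RNA came from whole liver, and in whole tissue fewer cells of a type and less RNA per cell cannot be told apart. Hepatocyte transcripts were bright in every genotype: the carbamoyl phosphate synthetase gene Cps1 averaged 13.10 in alb-SREBP-1a∆P, 13.25 in alb-SREBP-1a and 13.54 in C57Bl6 livers. All values are log2 signals, so a difference of 1 is a doubling, and levels of different genes are not set against each other because probe sets differ in brightness. The lowest correlation between any pair of the 24 arrays was 0.917 over all probe sets.

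Type I and type II interferons bind separate receptors whose JAK kinases phosphorylate STAT proteins. STAT complexes that hold IRF9 then bind interferon-stimulated response elements (ISRE), STAT dimers bind gamma-activated sites (GAS), and IRF proteins use the same ISRE letters. The induced genes encode GTPases that attack intracellular parasites (IRG and GBP families), RNA sensors, antiviral effectors, chemokines that draw T cells and the machinery of antigen presentation. In liver, Kupffer cells, other leukocytes, endothelial cells and hepatocytes can all express them. SREBP-1a itself is a lipid factor that reads sterol regulatory elements (SRE), and the comparison of the 2 transgenic lines asks whether its MAP kinase sites alter what it does to liver transcripts.

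RefSeq promoters (GRCm38.p6) were searched in the 250 bases before each annotated start for ISRE (GAAA, any 2 bases, GAAA), GAS (TTCNNNGAA) and SRE (TCACNCCAC) on both strands. A promoter was matched for 29 of the 38 genes. An ISRE stood in 14 of these 29 (48.3%), against 3.46% of all 27025 genes searched in the same way. A GAS stood in 8 of 29 (27.6%), against 8.13% of all genes, and no SRE was found in the 29, against 1.22% of all genes. Matches may overlap each other, as the ISRE pairs of Irgm1 and Gbp3 do, and a match describes letters, not a bound factor. The first 7 promoters below were chosen among called genes whose promoter holds a match, at most 2 per functional group by the smallest p. They are given 5′ to 3′ on the coding (non-template) strand with ISRE and GAS matches in capitals. Irf7, Ifih1, Cxcl9 and Tap1 also carry results that follow and had no ISRE or GAS match in this window, and the promoters of Irf7 and Cxcl9 are printed after the 7 for comparison. Irgm1 lies on the minus strand (chr11:48871421-48871670), Gbp3 on the plus strand (chr3:142559794-142560043), Gbp7 on the plus strand (chr3:142530086-142530335), Stat2 on the plus strand (chr10:128270248-128270497), Rsad2 on the minus strand (chr12:26456453-26456702), Ifit1 on the plus strand (chr19:34640639-34640888), and on the minus strand Cxcl10 (chr5:92348890-92349139), Irf7 (chr7:141266425-141266674) and Cxcl9 (chr5:92328080-92328329).
Irgm1: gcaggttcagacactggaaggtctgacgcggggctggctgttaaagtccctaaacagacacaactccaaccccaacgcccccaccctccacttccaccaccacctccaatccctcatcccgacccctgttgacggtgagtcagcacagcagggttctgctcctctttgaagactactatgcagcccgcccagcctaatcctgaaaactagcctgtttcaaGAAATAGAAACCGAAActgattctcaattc
Gbp3: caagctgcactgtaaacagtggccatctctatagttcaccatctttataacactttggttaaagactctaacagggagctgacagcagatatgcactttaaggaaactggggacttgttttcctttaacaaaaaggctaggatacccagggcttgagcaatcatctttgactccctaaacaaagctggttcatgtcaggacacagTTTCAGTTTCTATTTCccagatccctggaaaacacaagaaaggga
Gbp7: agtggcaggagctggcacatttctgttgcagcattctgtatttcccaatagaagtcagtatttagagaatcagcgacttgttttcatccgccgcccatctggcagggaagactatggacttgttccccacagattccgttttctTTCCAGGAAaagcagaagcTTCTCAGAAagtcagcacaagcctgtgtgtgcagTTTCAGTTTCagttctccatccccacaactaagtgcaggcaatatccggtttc
Stat2: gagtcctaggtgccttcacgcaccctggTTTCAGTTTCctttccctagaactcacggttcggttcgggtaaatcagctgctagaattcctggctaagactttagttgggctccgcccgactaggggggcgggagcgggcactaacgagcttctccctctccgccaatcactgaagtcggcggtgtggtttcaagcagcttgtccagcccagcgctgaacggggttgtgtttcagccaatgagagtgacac
Rsad2: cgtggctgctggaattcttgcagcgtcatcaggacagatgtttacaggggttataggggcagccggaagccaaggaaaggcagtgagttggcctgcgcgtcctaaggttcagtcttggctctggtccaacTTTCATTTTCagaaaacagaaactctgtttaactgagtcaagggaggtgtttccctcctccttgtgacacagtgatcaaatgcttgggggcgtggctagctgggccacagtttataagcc
Ifit1: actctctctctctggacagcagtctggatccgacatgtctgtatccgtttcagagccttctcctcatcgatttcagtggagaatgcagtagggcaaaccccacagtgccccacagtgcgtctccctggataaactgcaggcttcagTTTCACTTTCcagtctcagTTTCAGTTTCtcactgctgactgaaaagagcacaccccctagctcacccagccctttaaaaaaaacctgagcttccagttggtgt
Cxcl10: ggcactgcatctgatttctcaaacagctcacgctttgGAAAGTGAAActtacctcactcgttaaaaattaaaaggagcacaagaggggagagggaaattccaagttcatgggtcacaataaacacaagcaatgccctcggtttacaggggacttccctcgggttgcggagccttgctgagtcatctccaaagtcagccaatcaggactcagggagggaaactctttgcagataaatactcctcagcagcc
Irf7: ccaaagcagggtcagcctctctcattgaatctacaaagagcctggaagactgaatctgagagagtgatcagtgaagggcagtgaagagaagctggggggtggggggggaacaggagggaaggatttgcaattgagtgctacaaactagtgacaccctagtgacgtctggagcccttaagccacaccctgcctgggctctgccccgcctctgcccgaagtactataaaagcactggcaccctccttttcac
Cxcl9: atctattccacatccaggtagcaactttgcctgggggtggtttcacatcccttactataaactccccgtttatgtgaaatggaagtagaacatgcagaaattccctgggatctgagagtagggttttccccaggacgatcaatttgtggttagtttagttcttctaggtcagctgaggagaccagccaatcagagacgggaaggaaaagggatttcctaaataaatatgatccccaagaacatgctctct
The 2 Gbp promoters differ in their letters: Gbp7 carries 1 ISRE and 2 GAS matches, and Gbp3 carries 2 overlapping ISRE matches and no GAS. Irgm1 and Ifit1 hold 2 ISRE matches each, Stat2, Rsad2 and Cxcl10 hold 1 each, and none of these 5 holds a GAS. Of the genes called higher in alb-SREBP-1a than in C57Bl6 livers, 9 had a promoter and 5 of them held an ISRE, beside 4 of 13 among those not called. The 1 gene called lower also held an ISRE, as did 10 of all 23 measured genes with a promoter. An ISRE or a GAS stood in 5 of the 9 and in 7 of the 13, so the shares were close.

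Compared to C57Bl6, alb-SREBP-1a livers carried more transcript of a subset of the interferon-stimulated genes, led by the T cell chemokines Cxcl10 and Cxcl9, the antiviral gene Rtp4 and the GTPases Irgm1, Gbp3, Gbp5 and Gbp7. Of the 31 genes, 10 were higher, 1 was lower and 20 were not called at an adjusted p under 0.05 in limma with Benjamini-Hochberg adjustment over all 35556 probe sets. Over all probe sets 6.77% were called higher and 3.98% lower, and both shares were larger among bright probe sets, as given below for the share higher. The median difference of the 31 genes was 0.17, against 0.01 for all probe sets, and 26 of them lay above 0. The gene that fell was Rsad2 (viperin), an antiviral radical SAM enzyme. In the same livers 9 of 15 Kupffer cell and macrophage markers were higher, and their part in these results was not tested. Irgm1 had all 8 alb-SREBP-1a livers above all 8 C57Bl6 livers, as 2.03% of all probe sets did, and no gene of the 31 had all 8 below, as 1.03% did.

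In alb-SREBP-1a∆P livers the picture against the same C57Bl6 arrays was different. There, 3 genes were higher (Nlrc5, Cxcl10 and Gbp5), 7 were lower (Rsad2, Stat2, Usp18, Parp14, Ifih1, Mx2 and Bst2) and 21 were not called. As shares of the 31 these were 9.68% higher and 22.6% lower, against 27.0% higher and 20.2% lower among all probe sets. The median difference of the 31 genes was -0.09, against 0.11 for all probe sets, but 0.0029 when each gene was set against probe sets of like signal. Both comparisons use the same 8 control livers, so the values of the 2 lines against C57Bl6 are set side by side below and not treated as independent.

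**Figure D1:**
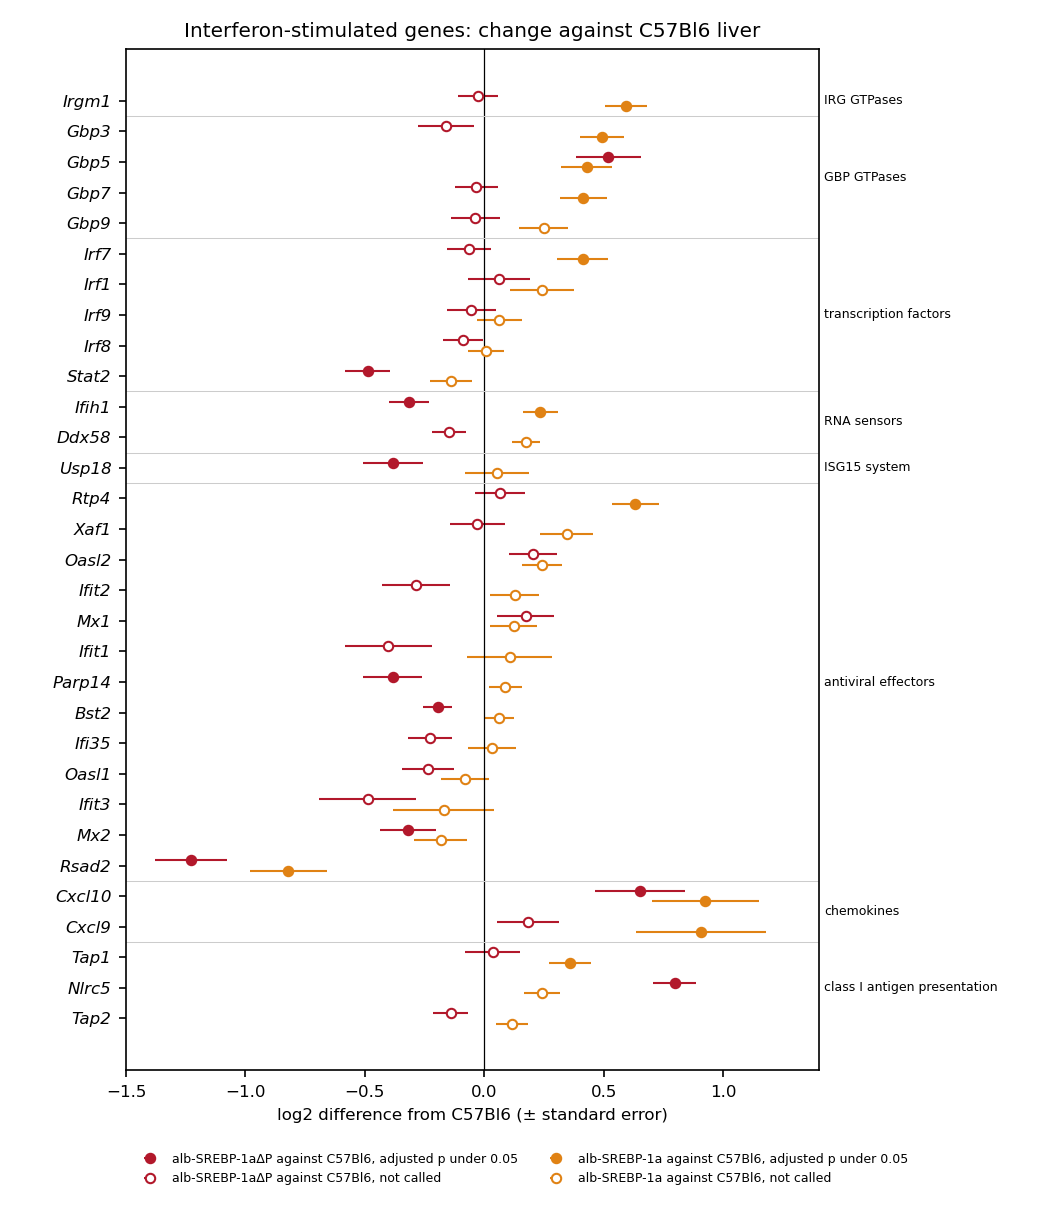
Log2 difference from C57Bl6 (x axis) of each of the 31 interferon-stimulated genes, grouped by function, with red points for alb-SREBP-1a∆P and orange points for alb-SREBP-1a (8 mice per genotype); bars are standard errors and filled points have an adjusted p under 0.05. The orange points of Irgm1, Gbp3, Gbp7, Irf7 and Rtp4 lie between 0.41 and 0.63 while their red points lie between -0.16 and 0.07, and Rsad2 is low in both lines.

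The direct comparison of the lines tested that difference. In alb-SREBP-1a∆P compared to alb-SREBP-1a livers, 18 of the 31 genes were lower, 1 was higher (Nlrc5) and 12 were not called, with a median of -0.32 against 0.08 for all probe sets. Here 22.8% of all probe sets were called higher and 21.4% lower. Irgm1 and Gbp3 had all 8 alb-SREBP-1a∆P livers below all 8 alb-SREBP-1a livers, a separation shown by 4.06% of all probe sets.

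These values need to be read beside signal level, because on these arrays the alb-SREBP-1a∆P livers had higher values for dim and lower values for bright probe sets, and 25 of the 31 genes lay above the dim 6 of 10 equal bands of mean signal. Against alb-SREBP-1a, 29.3% of all probe sets in band 7, 51.6% in band 8, 62.3% in band 9 and 46.1% in band 10 were called lower. Of the interferon-stimulated genes, 4 of 6 in band 7, 6 of 9 in band 8, 5 of 9 in band 9 and the 1 in band 10 were called lower, so in bands 8 and 9 the share was close to that of any probe set of like signal. In bands 1 to 6, where 4.09% of probe sets were called lower, 2 of 6 genes were (Ifit2 and Xaf1). Set against the median of its own band, the difference was negative for 24 genes and positive for 7, with a median of -0.19. Against C57Bl6 the level dependence of alb-SREBP-1a∆P was alike: 2 of 9 genes in band 8 and 2 of 9 in band 9 were called lower, beside 46.1% and 53.3% of all probe sets there, and set against their own bands the 31 genes had a median of 0.0029, with 17 above and 14 below. Between the lines, when the arrays were normalised with cyclic loess, which removes such level-dependent differences, 10 of the 31 were lower, with a median of -0.22. Of all probe sets, 10.4% were called lower between the lines under cyclic loess. The comparison of alb-SREBP-1a with C57Bl6 showed little of this dependence in the size of differences: band medians ran between -0.03 and 0.13. The share of all probe sets called higher there still rose with signal. It was 3.64% in bands 1 to 6, 6.84% in band 7, 11.7% in band 8, 13.3% in band 9 and 14.1% in band 10. Of the interferon-stimulated genes, 1 of 6, 2 of 6, 4 of 9 and 3 of 9 were called higher in the same order, and the 1 in band 10 was not.

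**Figure D2:**
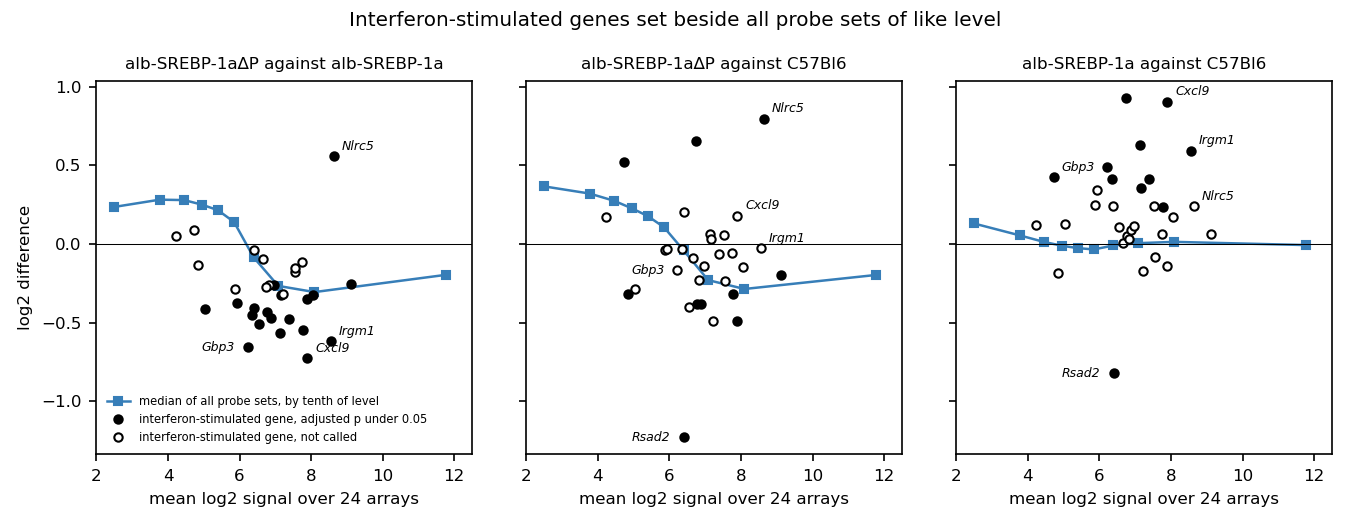
Log2 difference (y axis) against mean log2 signal over 24 arrays (x axis) for the 31 interferon-stimulated genes (circles, filled where the adjusted p was under 0.05) in each comparison; blue squares give the median difference of all probe sets in each of 10 bands, drawn at the middle of the band. The blue line falls with signal in both comparisons of alb-SREBP-1a∆P and is nearly flat for alb-SREBP-1a against C57Bl6, where 26 of the 31 circles lie above 0.

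Irgm1, an immunity-related GTPase that controls autophagy and vacuole remodelling, gave the clearest separation. Its log2 signal ran from 8.15 through a median of 8.33 to 8.50 in alb-SREBP-1a∆P, from 8.69 through 8.97 to 9.24 in alb-SREBP-1a and from 8.14 through 8.31 to 8.65 in C57Bl6 livers. The alb-SREBP-1a livers thus stood apart from both other genotypes, which overlapped throughout. The difference was 0.59 ± 0.09 (SE) for alb-SREBP-1a against C57Bl6 (1.51-fold, adjusted p = 0.000424 in limma) and -0.62 ± 0.08 between the lines (adjusted p = 0.000129), beside a band median of -0.31. Against C57Bl6, alb-SREBP-1a∆P differed by -0.03 ± 0.09 (adjusted p = 0.811).

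The guanylate-binding proteins, GTPases that coat and disrupt pathogen vacuoles, showed 2 patterns. Gbp3, Gbp5 and Gbp7 lie on chromosome 3 and Gbp9 on chromosome 5, in clusters of close copies, so the probe sets may share signal. Gbp3 spanned 5.60 to 6.36 (median 5.89) in alb-SREBP-1a∆P, 6.41 to 6.88 (6.56) in alb-SREBP-1a and 5.83 to 6.50 (6.08) in C57Bl6 livers. Gbp7 spanned 5.95 to 6.43 (6.17), 6.22 to 6.98 (6.68) and 5.998 to 6.45 (6.21) in the same order of alb-SREBP-1a∆P, alb-SREBP-1a and C57Bl6. Both were high in alb-SREBP-1a alone, with 5 of 8 livers for Gbp3 and 6 of 8 for Gbp7 above every C57Bl6 liver. The alb-SREBP-1a livers differed from C57Bl6 by 0.49 ± 0.09 (adjusted p = 0.00221) for Gbp3 and 0.41 ± 0.10 (adjusted p = 0.0122) for Gbp7, and alb-SREBP-1a∆P livers were below them with differences of -0.65 ± 0.11 (adjusted p = 0.000510) for Gbp3 and -0.45 ± 0.10 (adjusted p = 0.00283) for Gbp7.

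Gbp5, which also promotes inflammasome assembly, was high in both lines. It spanned 4.49 to 5.57 (median 4.86) in alb-SREBP-1a∆P, 4.54 to 5.15 (4.82) in alb-SREBP-1a and 4.21 to 4.68 (4.34) in C57Bl6 livers, so that both transgenic ranges overlapped the control range and reached above it. The difference was 0.52 ± 0.14 in alb-SREBP-1a∆P (adjusted p = 0.00517) and 0.43 ± 0.11 in alb-SREBP-1a (adjusted p = 0.0147). As a dim gene it sat where the band median was 0.27 for alb-SREBP-1a∆P against C57Bl6, and that call was lost under cyclic loess (0.24, adjusted p = 0.213). Gbp9 was not called in any of the 3 comparisons, with 0.25 ± 0.10 in alb-SREBP-1a against C57Bl6 (adjusted p = 0.142). Between the lines, however, it stayed uncalled in only 4 of 13 alternatives with an adjusted p. It was lower there under quantile normalisation (-0.41, adjusted p = 0.0275) and cyclic loess (-0.36, adjusted p = 0.046), among others. The same held without alb-SREBP-1a∆P replicate 4 (-0.34, adjusted p = 0.0253) or alb-SREBP-1a replicates 1 and 2 (-0.36, adjusted p = 0.0412).

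Of the 5 transcription factors, Irf7, the factor that amplifies type I interferon production, followed the Irgm1 pattern. It ran from 7.02 to 7.39 (median 7.22) in alb-SREBP-1a∆P, from 7.37 to 7.98 (7.70) in alb-SREBP-1a and from 7.02 to 7.63 (7.27) in C57Bl6 livers, and 6 of 8 alb-SREBP-1a livers exceeded every control. Irf7 was higher by 0.41 ± 0.11 in alb-SREBP-1a than in C57Bl6 (adjusted p = 0.0183) and lower in alb-SREBP-1a∆P livers than in alb-SREBP-1a livers (-0.47 ± 0.09, adjusted p = 0.000971). The call against C57Bl6 was lost without alb-SREBP-1a replicates 1 and 2 (0.32, adjusted p = 0.0704), and the call between the lines was lost under cyclic loess (-0.22, adjusted p = 0.0841).

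Stat2, the STAT subunit particular to type I and III interferon signalling, was instead low in alb-SREBP-1a∆P. Its values were 7.39 to 7.89 (median 7.60) in alb-SREBP-1a∆P, 7.79 to 8.12 (7.95) in alb-SREBP-1a and 7.84 to 8.44 (8.05) in C57Bl6 livers, with 7 of 8 alb-SREBP-1a∆P livers below every C57Bl6 liver. The difference of -0.49 ± 0.09 from C57Bl6 (adjusted p = 0.000557) stood beside a band median of -0.29 and was -0.23 under cyclic loess (adjusted p = 0.111). Between the lines Stat2 differed by -0.35 ± 0.08 (adjusted p = 0.00251), a call also lost under cyclic loess (-0.06, adjusted p = 0.629). Irf1, the interferon-gamma induced factor, Irf8, a macrophage and dendritic cell factor, and Irf9, a DNA-binding partner of STAT proteins, were not called in any comparison. Their differences from C57Bl6 lay between -0.09 and 0.06 in alb-SREBP-1a∆P and between 0.01 and 0.24 in alb-SREBP-1a.

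Both cytosolic RNA sensors were lower in alb-SREBP-1a∆P livers than in alb-SREBP-1a livers. Ifih1 (MDA5), which senses long double-stranded RNA, ran from 7.19 to 7.85 (median 7.44) in alb-SREBP-1a∆P, from 7.79 to 8.25 (8.07) in alb-SREBP-1a and from 7.71 to 7.99 (7.77) in C57Bl6 livers. The genotypes were ordered with alb-SREBP-1a highest and alb-SREBP-1a∆P lowest, and 7 of 8 alb-SREBP-1a∆P livers lay below every liver of either other genotype. Ifih1 differed by -0.55 ± 0.09 between the lines (adjusted p = 0.000380, band median -0.31), by -0.32 ± 0.08 between alb-SREBP-1a∆P and C57Bl6 (adjusted p = 0.00503, band median -0.29) and by 0.23 ± 0.07 between alb-SREBP-1a and C57Bl6 (adjusted p = 0.0471). The call against C57Bl6 was lost under cyclic loess for alb-SREBP-1a∆P (-0.06, adjusted p = 0.588), and for alb-SREBP-1a without its replicate 4 (0.23, adjusted p = 0.0722), without its replicates 1 and 2 (0.18, adjusted p = 0.146) and under quantile normalisation (0.20, adjusted p = 0.0608). Ddx58 (RIG-I), the sensor of RNA ends, differed by -0.32 ± 0.08 between the lines, close to its band median of -0.31, and by -0.04 under cyclic loess. Against C57Bl6 Ddx58 was not called in alb-SREBP-1a (0.17 ± 0.06, adjusted p = 0.0755) and stayed uncalled in 9 of 13 alternatives with an adjusted p. It gained a call without replicate 5 (0.21, adjusted p = 0.0224) and without dim probe sets (adjusted p = 0.0406). Array weights (adjusted p = 0.0188) and the methods' t-test after Benjamini-Hochberg adjustment (adjusted p = 0.0278) also gave a call.

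Usp18, the protease that strips ISG15 from proteins and restrains the type I receptor, spanned 6.23 to 6.68 (median 6.56) in alb-SREBP-1a∆P, 6.39 to 7.34 (6.97) in alb-SREBP-1a and 6.61 to 7.52 (6.80) in C57Bl6 livers. Its highest control value was that of C57Bl6 replicate 2, and the 3 ranges overlapped. Usp18 was lower in alb-SREBP-1a∆P livers than in C57Bl6 (-0.38 ± 0.12, adjusted p = 0.0181) and than in alb-SREBP-1a livers (-0.43 ± 0.11, adjusted p = 0.00678). Both calls were lost under cyclic loess, where the values were -0.23 (adjusted p = 0.167) and -0.27 (adjusted p = 0.0833).

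The 13 antiviral effectors did not move together. In alb-SREBP-1a against C57Bl6, Rtp4 was higher, Rsad2 lower and 11 not called. In alb-SREBP-1a∆P, 4 were lower than in C57Bl6 and 7 were lower than in alb-SREBP-1a, and none was higher in either comparison. Of all probe sets, 20.2% were called lower than in C57Bl6 and 21.4% lower between the lines. In bands 7 to 10, where most of these effectors lie, these shares ran from 28.6% to 53.3% and from 29.3% to 62.3%. Rtp4, a receptor chaperone that interferon induces and that limits some RNA viruses, ran from 6.68 to 7.21 (median 7.02) in alb-SREBP-1a∆P, from 7.17 to 7.70 (7.58) in alb-SREBP-1a and from 6.65 to 7.18 (6.86) in C57Bl6 livers. Only alb-SREBP-1a replicate 5 lay within the range of either other genotype. Rtp4 was higher by 0.63 ± 0.10 in alb-SREBP-1a than in C57Bl6 (adjusted p = 0.000516), and the difference between the lines was -0.57 ± 0.10 (adjusted p = 0.000562, band median -0.27).

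Rsad2 was instead highest in C57Bl6. Its values were 5.49 to 6.25 (median 5.84) in alb-SREBP-1a∆P, 5.87 to 6.77 (6.20) in alb-SREBP-1a and 6.50 to 7.67 (6.99) in C57Bl6 livers. All 8 alb-SREBP-1a∆P livers and 6 of 8 alb-SREBP-1a livers lay below every C57Bl6 liver, and complete separation downward was shown by 6.47% of all probe sets for alb-SREBP-1a∆P. Rsad2 differed from C57Bl6 by -1.23 ± 0.15 in alb-SREBP-1a∆P (0.427-fold, adjusted p = 9.55e-06) and by -0.82 ± 0.16 in alb-SREBP-1a (0.566-fold, adjusted p = 0.00305). Both calls against C57Bl6 held under every alternative run with an adjusted p, whereas the difference between the lines of -0.41 ± 0.13 (adjusted p = 0.0205) was lost under cyclic loess (-0.33, adjusted p = 0.0753). Cmpk2, the mitochondrial nucleotide kinase gene that lies beside Rsad2 and is induced with it, averaged 5.29 in alb-SREBP-1a∆P and 5.95 in C57Bl6 livers (-0.65 ± 0.13, adjusted p = 0.000798), and in alb-SREBP-1a livers it averaged 5.55 and was not called (-0.39 ± 0.13, adjusted p = 0.0558).

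**Figure D3:**
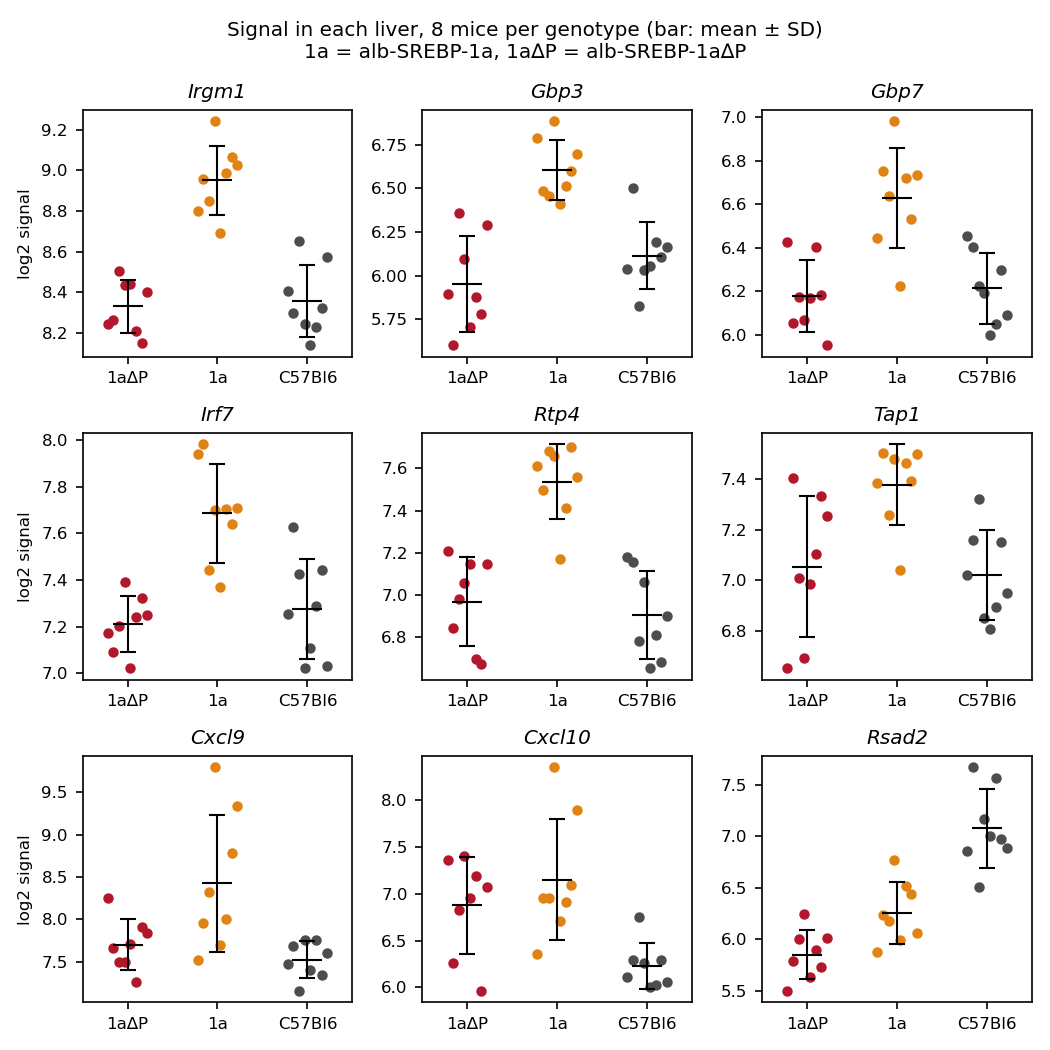
Log2 signal (y axis) of 9 interferon-stimulated genes in each liver (points), with mean and SD (bars), for alb-SREBP-1a∆P (1a∆P), alb-SREBP-1a (1a) and C57Bl6, 8 mice each; each panel has its own y axis, which does not start at 0. Irgm1, Gbp3, Gbp7, Irf7 and Rtp4 are high in alb-SREBP-1a, Cxcl10 is high in both lines, and Rsad2 is highest in C57Bl6 (median 6.99).

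The tetratricopeptide proteins Ifit1 and Ifit2, which hold back translation of viral RNA, were lower in alb-SREBP-1a∆P livers than in alb-SREBP-1a livers. Ifit1 ran from 5.99 to 6.57 (median 6.26) in alb-SREBP-1a∆P, from 6.43 to 7.16 (6.71) in alb-SREBP-1a and from 6.22 to 7.64 (6.46) in C57Bl6 livers, and Ifit2 from 4.13 to 5.15 (4.99), from 4.94 to 5.46 (5.23) and from 4.82 to 5.33 (5.06) for alb-SREBP-1a∆P, alb-SREBP-1a and C57Bl6. C57Bl6 replicate 2 was far above the median for Ifit1. The differences between the lines were -0.51 ± 0.11 for Ifit1 (adjusted p = 0.00251, band median -0.08) and -0.41 ± 0.15 for Ifit2 (adjusted p = 0.0325, band median 0.25), and the Ifit2 call was lost without alb-SREBP-1a replicate 4 (-0.38, adjusted p = 0.0594) or 5 (-0.38, adjusted p = 0.0541).

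Parp14, an ADP-ribosyltransferase, spanned 5.94 to 6.85 (median 6.75) in alb-SREBP-1a∆P, 6.83 to 7.27 (7.08) in alb-SREBP-1a and 6.83 to 7.06 (6.98) in C57Bl6 livers. Parp14 in alb-SREBP-1a∆P livers differed by -0.47 ± 0.13 from alb-SREBP-1a (adjusted p = 0.00851) and by -0.38 ± 0.12 from C57Bl6 (adjusted p = 0.0163), and both calls were lost under quantile normalisation and cyclic loess. Bst2 (tetherin), which holds budding virus at the membrane, Xaf1, a pro-apoptotic partner of XIAP, and the dynamin-like GTPase Mx2 gave called differences of less than 0.4 in size. Mx2 in alb-SREBP-1a∆P differed from C57Bl6 by -0.32 ± 0.12 (adjusted p = 0.0345), which was lost without alb-SREBP-1a∆P replicate 4 (-0.27, adjusted p = 0.0650) or C57Bl6 replicate 2 (-0.28, adjusted p = 0.0676). Xaf1 differed by -0.37 ± 0.11 between the lines (adjusted p = 0.0146), a call lost without alb-SREBP-1a replicates 1 and 2 (-0.33, adjusted p = 0.0508). In alb-SREBP-1a against C57Bl6, Xaf1 stayed uncalled in 8 of 13 alternatives with an adjusted p. It gained a call there under cyclic loess (0.36, adjusted p = 0.0432), among others. The same held without alb-SREBP-1a replicate 4 (0.41, adjusted p = 0.0125) or C57Bl6 replicate 2 (0.40, adjusted p = 0.0224). In alb-SREBP-1a∆P livers Bst2 differed by -0.20 ± 0.06 from C57Bl6 and by -0.26 ± 0.06 from alb-SREBP-1a, beside a band median of -0.20 in both comparisons, and the values turned to 0.057 and 0.0056 under cyclic loess. Ifit3, Ifi35, Mx1 and the oligoadenylate synthetase-like genes Oasl1 and Oasl2 were not called in any comparison. Between the lines Ifi35 stayed uncalled in 7 of 13 alternatives with an adjusted p. It was lower there in the others, among them those without alb-SREBP-1a replicate 4 (-0.30, adjusted p = 0.0482) or 5 (-0.30, adjusted p = 0.0348).

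The CXCR3 ligands Cxcl9 and Cxcl10, which attract activated T and NK cells, had the largest SDs of the 31 genes among alb-SREBP-1a livers. Cxcl10 ran from 5.96 to 7.41 (median 7.02) in alb-SREBP-1a∆P, from 6.36 to 8.35 (6.95) in alb-SREBP-1a and from 6.01 to 6.75 (6.18) in C57Bl6 livers, and 6 of 8 livers of each line exceeded every control. Cxcl10 was higher by 0.65 ± 0.19 in alb-SREBP-1a∆P (1.57-fold, adjusted p = 0.00962) and by 0.93 ± 0.23 in alb-SREBP-1a (1.90-fold, adjusted p = 0.0131), and the difference between the lines was -0.27 ± 0.27 (adjusted p = 0.421).

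Cxcl9 ran from 7.26 to 8.26 (median 7.68) in alb-SREBP-1a∆P, from 7.52 to 9.80 (8.16) in alb-SREBP-1a and from 7.15 to 7.76 (7.54) in C57Bl6 livers. Its SD was 0.81 in alb-SREBP-1a, beside 0.31 in alb-SREBP-1a∆P and 0.22 in C57Bl6, with replicate 4 highest. Cxcl9 was higher by 0.90 ± 0.27 in alb-SREBP-1a than in C57Bl6 (adjusted p = 0.0410) and by 0.18 ± 0.13 in alb-SREBP-1a∆P (adjusted p = 0.257). The call did not hold without alb-SREBP-1a replicate 4 (0.71, adjusted p = 0.0523) or without C57Bl6 replicate 2 (0.93, adjusted p = 0.0540). The difference between the lines was -0.72 ± 0.28 (adjusted p = 0.0473) and was lost without alb-SREBP-1a replicate 4 (-0.53, adjusted p = 0.0814), without alb-SREBP-1a∆P replicate 4 (-0.69, adjusted p = 0.0700) and under quantile normalisation (-0.53, adjusted p = 0.186). Under cyclic loess Cxcl9 was also higher in alb-SREBP-1a∆P livers than in C57Bl6 livers (0.44, adjusted p = 0.00666).

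In antigen presentation, the peptide transporter subunit Tap1 followed Irgm1 at a smaller size, with 0.36 ± 0.09 in alb-SREBP-1a against C57Bl6 (adjusted p = 0.0135) and -0.32 ± 0.11 between the lines (adjusted p = 0.0295), the second of which was lost under cyclic loess (-0.09, adjusted p = 0.605) and without alb-SREBP-1a∆P replicate 4 (-0.27, adjusted p = 0.0541) or alb-SREBP-1a replicate 4 (-0.31, adjusted p = 0.0505) or replicates 1 and 2 (-0.30, adjusted p = 0.0760). Tap2 differed by -0.26 ± 0.08 between the lines, close to its band median of -0.27, and lost its call without alb-SREBP-1a replicates 1 and 2 (-0.21, adjusted p = 0.0619). The Tap2 call was also lost under quantile normalisation (-0.13, adjusted p = 0.271) and cyclic loess (-0.06, adjusted p = 0.657). Nlrc5, the transactivator of class I genes, was the exception in direction. It ran from 8.88 to 9.46 (median 9.03) in alb-SREBP-1a∆P, from 8.41 to 8.79 (8.47) in alb-SREBP-1a and from 8.07 to 8.52 (8.27) in C57Bl6 livers, and all 8 alb-SREBP-1a∆P livers lay above all others, as did 5.34% of all probe sets against C57Bl6 and 1.88% against alb-SREBP-1a. The difference was 0.80 ± 0.09 against C57Bl6 (adjusted p = 3.79e-06) and 0.56 ± 0.09 against alb-SREBP-1a (adjusted p = 0.000324).

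The Nlrc5 values rest on 1 of 19 probe sets annotated to that gene, and these did not agree. Between the lines, 2 of the 19 were called higher and 3 lower, with differences from -0.49 to 0.56, and the mean over all 19 gave -0.05 (adjusted p = 0.533). Against C57Bl6, 7 of 19 were higher in alb-SREBP-1a∆P and 6 of 19 in alb-SREBP-1a, and none was lower in either line.

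Set side by side, the 3 calls of a gene fell into many combinations, some held by 1 gene only, and the most common are given here. Cxcl9, Gbp3, Gbp7, Irf7, Irgm1, Rtp4 and Tap1 were higher in alb-SREBP-1a than in C57Bl6, not called in alb-SREBP-1a∆P against C57Bl6, and lower in alb-SREBP-1a∆P livers than in alb-SREBP-1a. Of these 7, Gbp3, Gbp7 and Irgm1 kept all 3 calls under cyclic loess and 5 did under quantile normalisation (Gbp3, Gbp7, Irf7, Irgm1 and Rtp4). Gbp9, Ifi35, Ifit3, Irf1, Irf8, Irf9, Mx1, Oasl1 and Oasl2, 9 genes, were called in no comparison.

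By mouse, the mean of the 31 genes relative to the C57Bl6 mean ran from -0.18 to -0.02 in alb-SREBP-1a∆P, from -0.02 to 0.37 in alb-SREBP-1a and from -0.11 to 0.20 in C57Bl6 livers. Livers of alb-SREBP-1a replicates 2 and 4 had 16 of 31 genes above every control, whereas replicate 5 had 5 and was the lowest of its genotype for 17. The share of all probe sets above every control was not counted for single livers, so these counts describe the 31 genes only. Within a genotype the genes varied together to different degrees: the median Pearson correlation over the 465 gene pairs, each over 8 arrays, was -0.02 in alb-SREBP-1a∆P, 0.33 in alb-SREBP-1a and 0.23 in C57Bl6. These correlations share arrays and are given as description. Over all 24 arrays, after removing genotype means, the pairs most alike were Ddx58 with Tap1 (0.76), Ifit1 with Ifit3 (0.75) and Bst2 with Ifi35 (0.69).

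**Figure D4:**
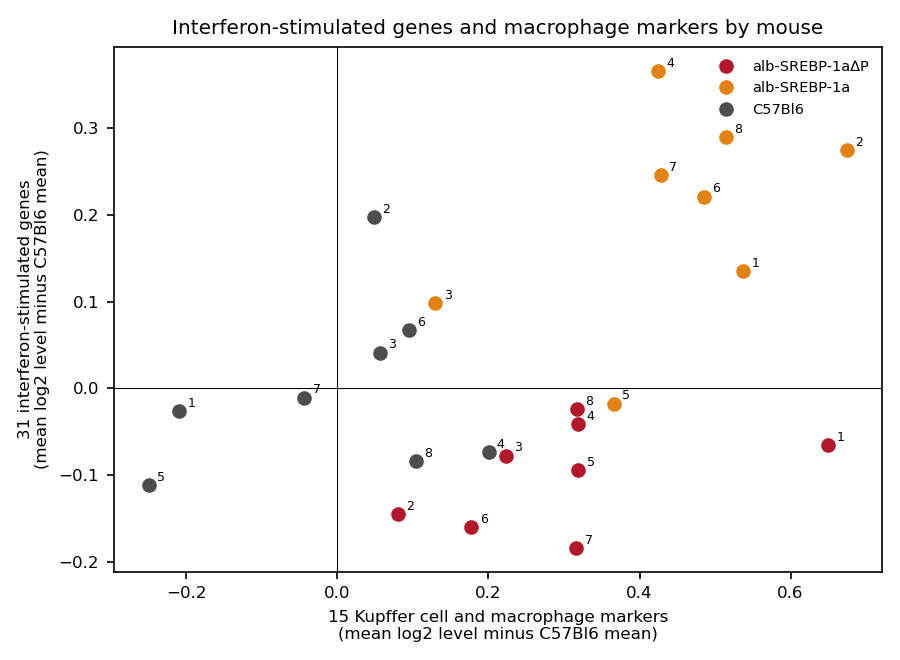
Mean log2 level of the 31 interferon-stimulated genes (y axis) against that of 15 Kupffer cell and macrophage markers (x axis), each minus its C57Bl6 mean, with 1 point per mouse labelled by replicate number. The alb-SREBP-1a mice reach 0.37 on the y axis, the alb-SREBP-1a∆P mice stay at or below -0.02, and the 2 lines overlap on the x axis.

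Markers of Kupffer cells and macrophages moved with genotype. Of 15 markers, 8 were higher in alb-SREBP-1a∆P and 9 in alb-SREBP-1a than in C57Bl6, none was lower in either line, and 4 were lower in alb-SREBP-1a∆P livers than in alb-SREBP-1a. In the signal bands of these markers, averaged over the list, 17.5% of all probe sets were called higher in alb-SREBP-1a∆P and 10.4% in alb-SREBP-1a than in C57Bl6, and 39.2% lower between the lines. Their mean relative to C57Bl6 ran from 0.08 to 0.65 in alb-SREBP-1a∆P, from 0.13 to 0.67 in alb-SREBP-1a and from -0.25 to 0.20 in C57Bl6 livers. The complement gene C1qc averaged 8.61 in alb-SREBP-1a∆P, 8.66 in alb-SREBP-1a and 7.49 in C57Bl6 livers, differing from C57Bl6 by 1.12 ± 0.11 in the first line (adjusted p = 1.39e-06) and 1.17 ± 0.11 in the second (adjusted p = 3.40e-06). The part of these cells in the interferon-stimulated genes was not tested.

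Of 14 T and NK cell markers, 5 were higher in alb-SREBP-1a∆P (Klrb1c by 0.70 ± 0.11, adjusted p = 0.000107) and 2 in alb-SREBP-1a (Ccl5 by 0.66 ± 0.16, adjusted p = 0.0134). Of all probe sets in their signal bands, 32.8% were called higher in alb-SREBP-1a∆P, close to the 35.7% of these markers, and 4.31% in alb-SREBP-1a. None of the 4 B cell markers and none of the 3 plasmacytoid dendritic cell markers was called in alb-SREBP-1a against C57Bl6, and in alb-SREBP-1a∆P 1 of each was higher (Cd22 by 0.23 ± 0.08 and Siglech by 0.45 ± 0.11). In the bands of these lists, 34.9% and 33.0% of all probe sets were called higher in alb-SREBP-1a∆P. Of 10 hepatocyte markers, 6 were lower in alb-SREBP-1a∆P and 1 in alb-SREBP-1a, Cps1 by -0.44 ± 0.07 and -0.29 ± 0.07. All 10 lie in band 10, where 47.2% of all probe sets were called lower in alb-SREBP-1a∆P and 14.5% in alb-SREBP-1a. Of 7 sinusoidal endothelial markers, 2 were lower in alb-SREBP-1a∆P and 1 higher in alb-SREBP-1a than in C57Bl6, and 5 were lower between the lines, beside 47.9% (lower), 12.2% (higher) and 53.8% (lower) of all probe sets in their bands. Between the lines 3 T and NK cell markers and 1 plasmacytoid dendritic cell marker were higher, beside 31.9% and 31.8% of all probe sets in their bands. No B cell marker was called there, and 2 hepatocyte markers were lower, beside 46.1% of all probe sets in band 10. The part of these markers in the results was not tested either.

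Upstream of the 31 genes, the interferons and their receptors gave no call in alb-SREBP-1a against C57Bl6 (0 of 13, with differences between -0.10 and 0.18). In alb-SREBP-1a∆P livers compared to alb-SREBP-1a livers, 2 were higher and 4 lower, beside 22.8% and 23.3% of all probe sets in their signal bands. Ifng, the gene of interferon gamma, averaged 5.19 ± 0.21 in alb-SREBP-1a∆P, 5.16 ± 0.14 in alb-SREBP-1a and 5.16 ± 0.13 in C57Bl6 livers (SD, n = 8 each), and Ifnb1 averaged 4.30 ± 0.31, 4.11 ± 0.18 and 4.09 ± 0.24 for alb-SREBP-1a∆P, alb-SREBP-1a and C57Bl6. In alb-SREBP-1a∆P, 4 of the 13 were higher and 3 lower than in C57Bl6 (30.8% and 23.1%), near the 26.2% and 22.2% of all probe sets in their signal bands, among them the receptor chains Ifngr1 (-0.62 ± 0.11, adjusted p = 0.000264) and Il10rb (-0.43 ± 0.09, adjusted p = 0.000696) and the type I interferon genes Ifnz (0.98 ± 0.16, adjusted p = 0.000151) and Ifna2 (0.59 ± 0.13, adjusted p = 0.00153).

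Among 10 genes of JAK-STAT signalling and its brakes, 4 were below C57Bl6 in alb-SREBP-1a∆P livers, including the tyrosine phosphatase Ptpn2 (-0.66 ± 0.09, adjusted p = 2.81e-05) and the kinase Jak2 (-0.37 ± 0.10, adjusted p = 0.00529). In alb-SREBP-1a the STAT inhibitor Pias1 was higher (0.39 ± 0.10, adjusted p = 0.0217) and 9 were not called, and between the lines 5 of 10 were lower. In the bands of these 10 genes, 40.9% of all probe sets were called lower in alb-SREBP-1a∆P against C57Bl6 and 44.2% between the lines. In alb-SREBP-1a against C57Bl6, 10.7% of them were called higher. Of 18 genes of nucleic acid sensing, 5 were lower and 2 higher in alb-SREBP-1a∆P, with the kinase Tbk1 at -0.64 ± 0.09 (adjusted p = 4.69e-05), and 5 were higher and none lower in alb-SREBP-1a. Between the lines 9 of the 18 were lower and none higher. In their bands, 32.5% of all probe sets were called lower and 18.7% higher in alb-SREBP-1a∆P against C57Bl6. The share was 8.70% higher in alb-SREBP-1a and 35.4% lower between the lines. The adaptor Ticam1 was higher in both lines, by 0.41 ± 0.10 in alb-SREBP-1a∆P (adjusted p = 0.00369) and by 0.45 ± 0.09 in alb-SREBP-1a (adjusted p = 0.00468).

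A further list of 31 measured interferon-stimulated genes outside the 38 had 8 lower and 5 higher in alb-SREBP-1a∆P than in C57Bl6 (median -0.18), 7 higher and none lower in alb-SREBP-1a than in C57Bl6 (median 0.19), and 17 lower and 1 higher in alb-SREBP-1a∆P livers than in alb-SREBP-1a (median -0.29). In their signal bands 32.3% of all probe sets were called lower and 18.1% higher in the first of these comparisons. The shares were 9.14% higher in the second, and 33.9% lower and 15.8% higher in the third. Set against band medians, the list's medians were -0.0028, 0.19 and -0.17. This list was chosen with results of these samples known and is no independent support. The membrane restriction factors Ifitm3 and Ifitm1 were higher in both lines. Ifitm3 differed from C57Bl6 by 0.53 ± 0.08 in alb-SREBP-1a∆P (adjusted p = 4.71e-05) and by 0.51 ± 0.07 in alb-SREBP-1a (adjusted p = 0.000231), whereas the lysosomal thiol reductase Ifi30, which prepares antigens in phagocytes, was higher in alb-SREBP-1a than in C57Bl6 (0.77 ± 0.09, adjusted p = 2.63e-05) and lower in alb-SREBP-1a∆P livers than in alb-SREBP-1a (-0.58 ± 0.09, adjusted p = 0.000224). Of 10 class I and immunoproteasome genes, 2 were higher in alb-SREBP-1a than in C57Bl6, beside 11.9% of all probe sets in their bands. These were the immunoproteasome subunit Psmb8 (0.39 ± 0.09, adjusted p = 0.00734) and the proteasome activator Psme1 (0.29 ± 0.06, adjusted p = 0.00355). Of the same 10, 3 were below C57Bl6 in alb-SREBP-1a∆P livers, beside 43.6% of all probe sets in their bands. Between the lines 5 were lower, beside 46.4%, led by the peptide-trimming enzyme Erap1 (-0.54 ± 0.08, adjusted p = 0.000157).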

How the data were processed

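Total RNA (150 ng) of 24 mouse livers was amplified, biotin labelled and hybridised to 1 array per mouse. The authors normalised the scans with RMA in the Affymetrix Expression Console, per the labels and methods, and deposited log2 signals of 35556 probe sets. The medians of the deposited arrays differed (5.69 to 5.81 in alb-SREBP-1a∆P, 5.54 to 5.65 in alb-SREBP-1a and 5.55 to 5.65 in C57Bl6), and the deposited values were used unchanged. Probe sets were named by the platform annotation: 21789 had 1 symbol, 1621 several and 12146 none. The genome build behind the probe sets is not given in the sources used here.

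Each pair of genotypes was fitted alone with limma 3.58.1 in R 4.3.3 (lmFit and eBayes), 8 against 8 arrays, with Benjamini-Hochberg adjustment over all 35556 probe sets and calls at an adjusted p under 0.05. The mice were litter mates, and p-values rest on the spread among these mice only. The number of arrays limits the precision. The script was tested on simulated data. The choices varied were a joint fit of the 24 arrays, a block for replicate number, quantile normalisation, centring on the median, cyclic loess, a filter on dim probe sets, array weights, averaging of a gene's probe sets, the methods' t-test and fits without single arrays. Those without alb-SREBP-1a replicate 4 or 5 and without C57Bl6 replicate 2 were chosen after the values were seen.

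The genes and the 11 companion lists were chosen with earlier results of these data known, so their counts are descriptions and no list was tested. Genes called in at least 1 comparison with a difference of at least 0.4 are given in full, others by counts and ranges, and of companion lists up to 4 genes per comparison with the smallest p could be named. Ifng, Ifnb1, Ddx58, Tap1 and Tap2 values, and single values outside that rule, were chosen after they were seen. Tables and figures used Python 3.11.15, numpy 2.4.6, pandas 2.3.3 and matplotlib 3.10.9.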

Additional observations from a re-analysis of the deposited data

Results flagged for a closer look

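In 3 of 93 groups of 8 values (31 genes in 3 genotypes) a single liver lay far from the other 7 by Dixon's test, which chance does in about 1 of 20 groups. Gbp9 was at 6.61 in alb-SREBP-1a replicate 4, with the next liver at 6.09. Xaf1 was at 5.67 in the same liver, the lowest of its genotype, with the next at 6.05. Cxcl10 was at 6.75 in C57Bl6 replicate 3, with the next at 6.30.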

How the results depend on the processing

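Arrays of the 3 genotypes carry replicate numbers 1 to 8, but same-numbered arrays did not deviate together (correlations from -0.12 to 0.28), so the numbers were not taken as pairs. With the replicate number as a block, 10 genes were higher and 1 lower in alb-SREBP-1a against C57Bl6, 3 higher and 7 lower in alb-SREBP-1a∆P against C57Bl6, and 1 higher and 17 lower between the lines. In the same order, 5.73% and 3.17%, 26.0% and 19.6%, and 20.2% and 18.5% of all probe sets were called higher and lower. The calls of Ifih1 (alb-SREBP-1a against C57Bl6), Mx2 (alb-SREBP-1a∆P against C57Bl6), Ifit2 and Cxcl9 (both between the lines) were lost. Calls were gained by Xaf1 (alb-SREBP-1a against C57Bl6), Ifi35 (alb-SREBP-1a∆P against C57Bl6) and Gbp9 (between the lines).

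In alb-SREBP-1a against C57Bl6, counts of higher genes stayed between 9 and 13 under the alternatives with adjusted p that keep all arrays, and the methods' t-test at an unadjusted p with 1.5-fold gave 4. Without single arrays or replicates 1 and 2 they were 8 to 11. Of all probe sets, 5.48% to 12.7% were called higher with all arrays kept, and 5.82% to 6.78% without those arrays. No share of all probe sets was counted for the t-test with 1.5-fold. In alb-SREBP-1a∆P against C57Bl6, cyclic loess gave 5 higher and 3 lower with a median of 0.029, the opposite sign to the median reported, median centring gave 16 lower with a median of -0.25, and the t-test 1 lower. Of all probe sets, cyclic loess called 16.0% higher and 15.3% lower in that comparison, and median centring called 28.7% lower. Between the lines, median centring gave a median of -0.49, quantile normalisation -0.22 and cyclic loess -0.22 with 10 lower, the t-test gave 0 higher and 3 lower, and the mean over all probe sets gave 0 higher. Of all probe sets, 10.4% were lower between the lines under cyclic loess, and 22.8% were higher with the mean over a gene's probe sets. Reversed signs were those of Bst2 under cyclic loess (0.057 against C57Bl6 and 0.0056 between the lines) and Nlrc5 with the mean over its probe sets (-0.049). The causes were not tested.

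Scaling moved the median of all probe sets in alb-SREBP-1a∆P by up to -0.16 against C57Bl6 and -0.17 against alb-SREBP-1a, and the share of higher among all calls from 57.1% to 31.9% (median centring) or 40.6% (quantile) in the first and from 51.6% to 23.9% or 41.1% in the second. In alb-SREBP-1a against C57Bl6 it was 63.0%, or 51.6% with quantile normalisation. Of all probe sets, 9584 were called higher in alb-SREBP-1a∆P than in C57Bl6 as deposited, against 4586 (quantile), 4780 (median centring) and 5690 (cyclic loess). Between the lines the same settings gave 8105 higher as deposited, against 3421, 3582 and 4025, and 7607 lower, against 4898, 11410 and 3681. Without dim probe sets, 27 of the 31 genes remained in the fit.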
